A study of Mus musculus with 36 samples.

Results

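The insulin-like growth factor (IGF) system was followed through 10 genes in RNA from mouse P-bodies, cytoplasm and polysomes. The 10 genes were Igf2, H19, Igf1r, Igf2r, Igfbp2, Igfbp3, Igfbp4, Igfbp5, Igfbp6 and Igfbp7, chosen by symbol out of 25239 genes in the table of P-body and cytoplasm libraries. All 10 were also listed among the 25229 genes of the polysome table and the 48440 genes of the Ago2 knockout (KO) table. They had been picked for their levels and their P-body enrichment in fibroblasts, reprogramming cells and embryonic stem (ES) cells, so those values are given as a description with no test. The response to Nudt21 knockdown, ribosome occupancy and the response to DDX6 loss, which the choice did not name, were tested. The Nudt21 contrasts used day 3 libraries whose levels and enrichment had served in the choice, so their member tests are not independent of it.

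IGF2 is a secreted growth factor of the embryo that signals through IGF1R, a receptor tyrosine kinase that activates the PI3K and AKT pathway. IGF2R binds the same ligand without such signalling and carries it to lysosomes, and it also sorts lysosomal enzymes. The IGF binding proteins (IGFBPs) are secreted carriers that hold IGFs outside the cell and set how much ligand reaches the receptor, with IGFBP7 a weak binder. H19 is a noncoding RNA made from the same imprinted domain as Igf2, from the maternal chromosome where Igf2 is made from the paternal one, and mouse Igf2r is imprinted as well. P-bodies are droplets of protein and RNA in the cytoplasm, and many of the mRNAs in them are not being translated.

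Naive and primed ES cells came from the v6.5 line, a C57BL/6 by 129S4Sv/Jae hybrid, with the naive cells kept in medium with 2 kinase inhibitors and LIF and the primed cells in activin A and bFGF. Mouse embryonic fibroblasts (MEFs), labelled as controls, came from mid-gestation embryos after removal of head, limbs, spinal cord, gonads and organs. These MEFs carried a doxycycline-inducible OKSM reprogramming cassette, an rtTA transgene and a Pou5f1-EGFP reporter. Day 3 cells were the same kind of MEFs after 3 days of reprogramming in doxycycline, LIF and ascorbic acid with a control or a Nudt21 knockdown, so the medium also differed from that of MEFs. All sorted cells expressed GFP-LSM14A, a fluorescent P-body protein, from a lentivirus. Ago2 KO cells were naive ES cells edited with a pair of guides. Polysome-bound and total RNA came from naive ES cells, grown from single-cell clones, that also expressed GFP-LSM14A. They carried a degron tag on DDX6, a helicase that P-bodies need. They were treated with solvent (control) or with dTAG-13 (DDX6 depleted). The treatment lasted hours, and the study calls this DDX6 loss acute. Cycloheximide was added to the cells before harvest. The groups had 2 libraries each for P-bodies and cytoplasm and 3 each for polysomes and total RNA. The study describes its replicates as biologically independent, and the labels do not say whether they came from separate cultures or embryos.

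The P-body and cytoplasm libraries had from 6769731 to 31185874 reads each, those of polysomes and total RNA from 13308782 to 29362195, and those of Ago2 KO cells from 15624401 to 17486268. Levels are given as CPM, the counts-per-million of all reads in the library. Fold changes are given after TMM scaling within the libraries of each fit. Over all polysome and total RNA libraries together, this scaling put polysome-bound libraries at 1.04 to 1.07 and total RNA libraries at 0.935 to 0.950 of their totals. Some libraries differed from the rest of their group. The cytoplasm pair of Ago2 KO cells differed from each other by the most, with a chi-square of 334 per degree of freedom, and the day 3 control P-body pair reached 52.1, against 1.82 to 44.6 in the other pairs. All 4 markers of lung epithelium had reads in both MEF P-body libraries, at a summed 5.85 and 86.9 CPM, whereas the MEF cytoplasm held 0 and 0.0166 CPM. The summed level of 8 fibroblast markers was 14565 and 15157 CPM in the MEF P-bodies and 49079.9 and 45177 CPM in the MEF cytoplasm, with reads for 8 of 8 markers in all 4 libraries.

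Igf2 lies at chr7:142650766-142666816 on the minus strand (mm10, GENCODE M21), and H19 lies 72622 bp away at chr7:142575529-142578143 on the same strand. Igfbp2, at chr1:72824503-72852474, and Igfbp5, at chr1:72857932-72874884, are another pair of neighbours, on opposite strands and 5457 bp apart. Igf1r lies at chr7:67952827-68233668 on the plus strand. The receptor genes encode the longest RNAs of the set, with 11.4 kb for Igf1r and 8.89 kb for Igf2r, against 1.11 kb for Igfbp6, 1.20 kb for Igfbp7 and 1.31 kb for Igfbp2. The antisense gene Airn overlaps Igf2r over 28354 bp, and Igf2os overlaps Igf2 over 7124 bp. The counting was not stated to use strand, so reads from exons that such partners share cannot be told apart. Airn itself held at most 7.69 CPM and Igf2os at most 0.866 CPM in any library.

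The H19 transcript also contains the 84-nt hairpin of miR-675, at chr7:142577064-142577147, so that H19 reads at this place can be counted for either gene, and Mir675 held at most 6.29 CPM in any library. Its mature sequences are shown to set letters of the H19 locus beside those of the receptor gene Igf1r, together with the 2 places in the 3′ UTR of Igf1r that match the seed of the 3p arm. Capitals mark the seed (bases 2 to 8) in the miRNAs and its match in the sites (RefSeq miRNA sequences on GRCm38.p6, UTR sequence from GENCODE M21, all 5′ to 3′).
mmu-miR-675-5p: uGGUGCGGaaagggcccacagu
mmu-miR-675-3p: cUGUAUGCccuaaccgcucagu
Igf1r 3′ UTR, match at base 505: cctcatcaccccGCATACAcctg
Igf1r 3′ UTR, match at base 1264: cgtgaaacatttGCATACAcatc
Among the 9 protein-coding members, Igf1r alone held the letters GCATACA, and 7.05% of 20226 genes with an annotated 3′ UTR did so, or 23.5% of those with a UTR over 3000 nt. The UTR of Igf1r runs to 7267 nt. The match of the 5p seed, CCGCACC, was in 0 of 9 members and in 1.75% of all genes. A match is a description of the letters, and mature miRNAs were not measured in these libraries.

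The level of these genes differed between the kinds of cells over several orders of magnitude. H19 was almost absent from ES cells and abundant in fibroblasts and reprogramming cells. Its level in cytoplasm was 0.0783 and 0.0405 CPM in the naive libraries and 0.665 and 0.374 CPM in the primed ones. In MEF cytoplasm it stood at 42.1 and 41.6 CPM, and in day 3 control cytoplasm at 72.9 and 67.1 CPM. No H19 read was counted in the 4 Ago2 KO libraries. Igf2 in cytoplasm was highest in MEFs, at 22.1 and 22.6 CPM, then in day 3 control cells, at 9.54 and 10.6 CPM. Primed ES cytoplasm held 5.32 and 5.30 CPM of Igf2, and naive ES cytoplasm held 0.587 and 0.243 CPM, from 7.5 and 3 reads. The order of Igf2 levels over these 4 kinds of cells had no overlap between neighbours.

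Different binding proteins led in different kinds of cells. Per kb of transcript, Igfbp2 led the 10 genes in ES cells, with a mean of 816 CPM per kb in naive and 1559.8 CPM per kb in primed cytoplasm, followed by Igf2r in naive (36.4 CPM per kb) and Igfbp3 in primed cytoplasm (69.4 CPM per kb). In MEF cytoplasm, Igfbp7 led with 650.0 CPM per kb, ahead of Igfbp6 with 84.9 and Igfbp2 with 77.3 CPM per kb. In day 3 control cytoplasm, Igfbp3 led with 661 CPM per kb and Igfbp7 followed with 163. Igf1r RNA per kb was below that of Igf2r in the cytoplasm of every kind of cell, for example 6.74 against 25.3 CPM per kb in MEFs.

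**Figure D1:**
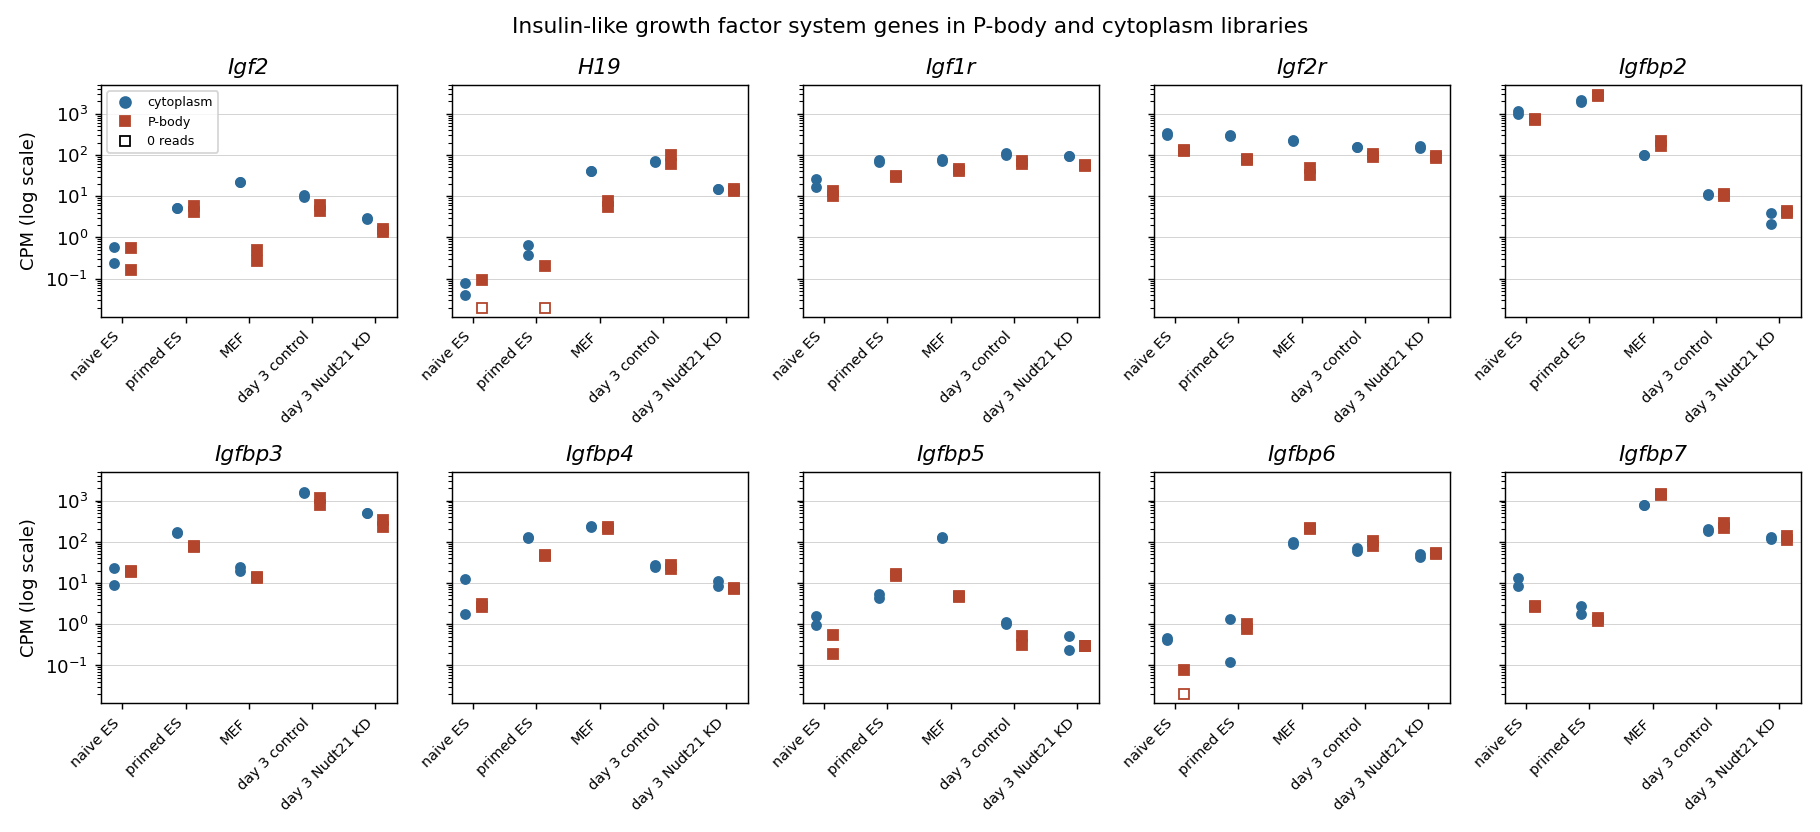
Level of each gene in the 20 P-body (squares) and cytoplasm (circles) libraries, in CPM on a log scale, with 1 point per library and open squares for 0 reads. H19, Igfbp6 and Igfbp7 are higher in MEF and day 3 libraries than in ES cell libraries. Igfbp2 is highest in ES cell libraries, lower in MEF libraries and lowest in day 3 libraries. Igfbp3 peaks at 1554 and 1646 CPM in day 3 control cytoplasm.

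Between MEFs and day 3 of reprogramming the carrier RNAs differed most, with Igfbp3 far higher and Igfbp5 far lower at day 3. Igfbp3, the main IGF carrier of blood, stood at 19.8 and 23.8 CPM in MEF cytoplasm and at 1554 and 1646 CPM in day 3 control cytoplasm. That is a log2 difference of 6.04 ± 0.08 (SE, n = 2 per group), or 65.7-fold. Igfbp5 was lower at day 3, with 130.3 and 127 CPM in MEFs and 1.01 and 1.15 CPM at day 3, a log2 difference of −7.05 ± 0.12. Igfbp2 was lower at day 3 by a log2 difference of −3.36 ± 0.09, and Igfbp4 by −3.34 ± 0.08. Igfbp7 (−2.16 ± 0.06), Igf2 (−1.31 ± 0.12), Igfbp6 (−0.72 ± 0.08) and Igf2r (−0.70 ± 0.06) were lower by less. H19 (0.58 ± 0.08) and Igf1r (0.31 ± 0.07) were somewhat higher at day 3. For all 10 genes the 2 groups of libraries did not overlap, 7 of them lower and 3 higher at day 3, where 40.9% of all genes were lower and 43.4% higher without overlap. The summed fibroblast markers were 45177 to 49079.9 CPM in MEF cytoplasm and 10560.4 to 10717 CPM at day 3, and 6 markers of skeletal muscle summed to 185 to 186 CPM and 7.07 to 8.23 CPM. Nearly all of these muscle sums came from Acta1 and Des, while the muscle regulators Myod1 and Pax7 had 0 reads in all 4 libraries. The part of these markers in the folds was not tested. Fewer cells of a type and less RNA per cell cannot be told apart in such bulk libraries.

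Primed ES cells held more RNA of most members than naive ES cells. Igfbp4 cytoplasm levels were 127 and 130.4 CPM in primed and 12.4 and 1.78 CPM in naive cells, and Igfbp3 levels were 161 and 175 CPM against 8.93 and 23.1 CPM. Of 9 members with enough reads, 6 (Igf2, Igf1r, Igfbp2, Igfbp3, Igfbp4 and Igfbp5) were lower in naive cytoplasm without overlap, and 2 (Igf2r and Igfbp7) were higher, where the shares over all genes were 39% and 37.8%. The naive cytoplasm pair lay far apart for Igfbp4, whose log2 difference of −3.95 carried an SE of 0.73. Igfbp7 was the carrier that was higher in naive cells without overlap, at 13.5 and 8.51 CPM in naive and 2.81 and 1.75 CPM in primed cytoplasm. In the same libraries the 8 fibroblast markers summed to 4289 to 4343 CPM in naive and 677 to 692 CPM in primed cytoplasm, of which Fn1 made up 4213 to 4236 and 620.3 to 620.7 CPM, while Col3a1 was at most 0.157 CPM. The 4 endothelial markers summed to 336 to 342 and 27.4 to 29.8 CPM, mostly Pecam1, with Cdh5 at 0 in both naive libraries. The part of these markers was not tested.

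P-body enrichment in MEFs separated the members widely. Igf2 was almost missing from MEF P-bodies, with 0.277 and 0.503 CPM (7 and 13 reads) against 22.1 and 22.6 CPM in the cytoplasm, a log2 difference of −5.84 ± 0.25. Igfbp5 followed, with 4.62 and 4.76 CPM in P-bodies and 130.3 and 127 CPM in cytoplasm (−4.79 ± 0.12). These are 57.2-fold and 27.7-fold lower levels in P-bodies. H19 held 7.68 and 5.51 CPM in P-bodies and 42.1 and 41.6 CPM in cytoplasm (−2.69 ± 0.16), and Igf2r held 49.0 and 32.2 CPM against 232 and 218 CPM (−2.49 ± 0.17). Airn, the antisense partner of Igf2r, differed in the opposite direction, with 5.57 and 7.69 CPM in P-bodies and 1.38 and 2.09 CPM in cytoplasm. On the other side stood the short carrier RNAs Igfbp6, at 219 and 207 CPM in P-bodies and 90.0 and 98.7 CPM in cytoplasm (1.16 ± 0.09), Igfbp2 (0.94 ± 0.13) and Igfbp7 (0.86 ± 0.07). In total, 7 members were lower and 3 higher in MEF P-bodies without overlap, beside 39.1% of all genes in either direction. The lung epithelial and fibroblast marker sums given above differed between these same libraries, and their part in the folds was not tested.

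At day 3 of reprogramming the 2 fractions lay closer together for Igf2, H19, Igfbp5 and Igf2r. Igf2 held 6.14 and 4.38 CPM of the P-body reads and 9.54 and 10.6 CPM in cytoplasm, a log2 difference of −0.92 ± 0.26. H19 held 59.8 and 97.4 CPM in the P-body libraries against 72.9 and 67.1 CPM in cytoplasm, so its groups overlapped (0.19 ± 0.25). Igfbp5 was down to 8 and 10 reads in the P-body libraries. Without overlap, 5 members (Igf2, Igf1r, Igf2r, Igfbp3 and Igfbp5) were lower in P-bodies and 2 (Igfbp6 and Igfbp7) were higher, where 30.6% and 29.2% of all genes were. The difference in enrichment between day 3 and MEFs was 4.96 ± 0.40 on the log2 scale for Igf2, 3.43 ± 0.41 for Igfbp5, 2.92 ± 0.33 for H19 and 1.84 ± 0.24 for Igf2r. For Igfbp2 (−0.90 ± 0.22), Igfbp6 (−0.60 ± 0.21) and Igfbp7 (−0.47 ± 0.19) it had the opposite sign, and for Igf1r, Igfbp3 and Igfbp4 it was within 0.21 of 0. In Nudt21 knockdown cells of day 3, 5 members (Igf2, Igf1r, Igf2r, Igfbp3 and Igfbp4) were lower in P-bodies and 0 higher, beside 31.2% and 30.9%. Between day 3 control cells and MEFs, a difference in enrichment past 2-fold in either direction was seen for 4 of 10 members and 29.2% of all genes.

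**Figure D2:**
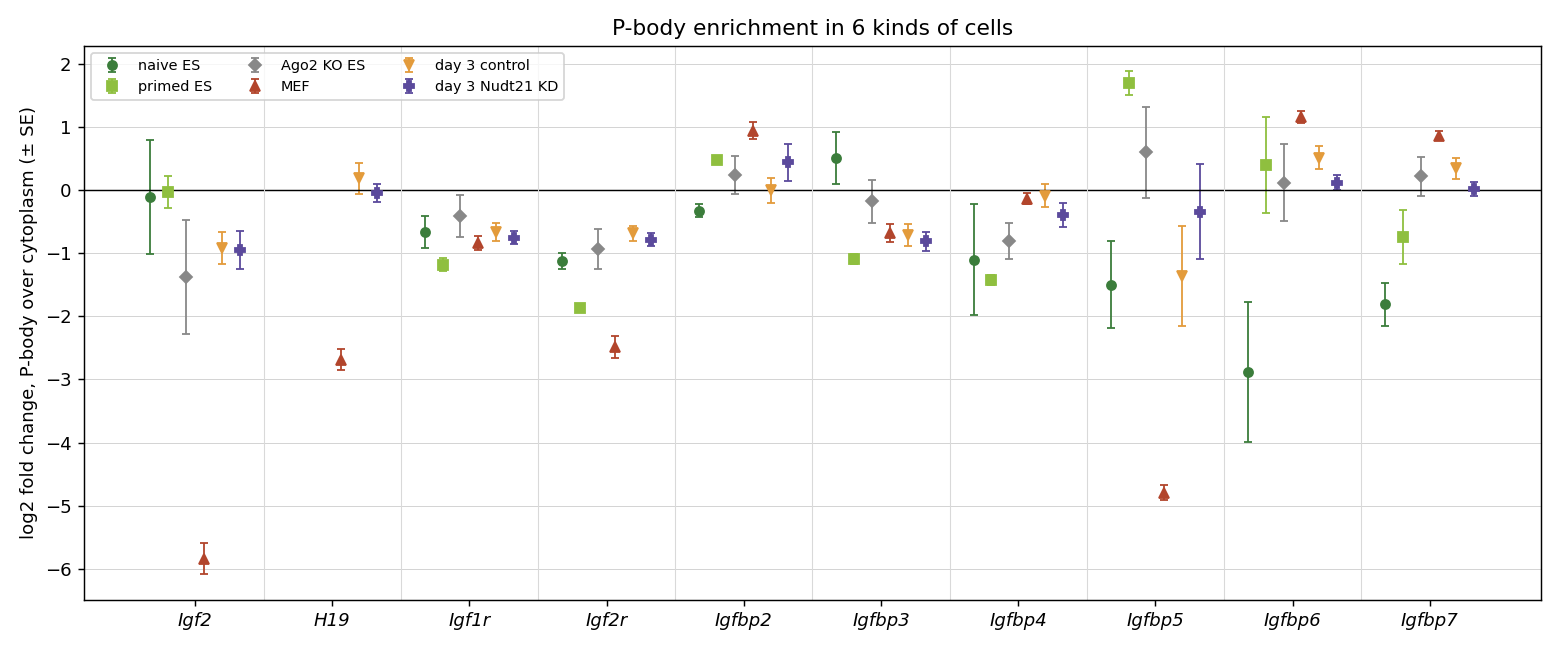
P-body over cytoplasm log2 fold change of each gene in 6 kinds of cells, with bars for the SE of the fit (2 libraries per group) and no point where a gene had fewer than 10 reads. Igf2r lies below 0 in all 6 kinds of cells, and the MEF values of Igf2 (−5.84) and Igfbp5 (−4.79) lie far below those of the other cells.

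The receptor RNAs, the longest of the set, were lower in P-bodies in nearly every kind of cell. Igf2r libraries did not overlap in 6 of 6 kinds of cells, with P-bodies always lower. The log2 differences were −1.12 ± 0.13 in naive, −1.87 ± 0.06 in primed and −0.93 ± 0.31 in Ago2 KO ES cells, and −0.69 ± 0.12 in control and −0.79 ± 0.10 in knockdown day 3 cells. In naive ES cells, for instance, the P-body libraries held 126 and 129 CPM and the cytoplasm held 346 and 301 CPM. Igf1r was lower in P-bodies without overlap in 5 of 6 kinds of cells, and its Ago2 KO libraries overlapped at 11.6 and 13.4 CPM against 11.6 and 20.4 CPM. The primed value of Igf1r was −1.18 ± 0.10.

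The ES cell states placed carrier RNAs differently. In primed ES cells, Igfbp5 held 16.2 and 14.6 CPM of the P-body reads and 5.47 and 4.36 CPM in cytoplasm (1.69 ± 0.19), the reverse of MEFs. Igfbp2 was also higher in primed P-bodies, at 2725 and 2829 CPM against 2113 and 1964 CPM (0.48 ± 0.04). Igfbp4, at 46.3 and 47.3 CPM in P-bodies and 127 and 130.4 CPM in cytoplasm (−1.42 ± 0.08), and Igfbp3 (−1.09 ± 0.07) were lower there. In naive ES cells 6 members (Igf1r, Igf2r, Igfbp2, Igfbp5, Igfbp6 and Igfbp7) were lower and 0 higher without overlap, beside 36.9% and 36.4% of all genes. Of these, Igfbp5 (means of 0.371 CPM in P-bodies and 1.27 CPM in cytoplasm) and Igfbp6 (0.0398 and 0.438 CPM) rested on few reads. In primed ES cells 5 were lower and 2 higher, beside 37.1% and 38.1%. Naive P-bodies held 719 and 735 CPM of Igfbp2 against 979 and 1154 CPM in cytoplasm (−0.33 ± 0.10), and 2.60 and 2.79 CPM of Igfbp7 against 13.5 and 8.51 CPM (−1.81 ± 0.34). Igf2 itself overlapped between the fractions of both ES cell states, and H19 had too few reads there for a fold. In Ago2 KO cells, where Ago2 RNA held 2.57 to 4.52 CPM against 67.2 to 111 CPM in the naive fractions of the other table, 2 members (Igf2r and Igfbp4) were lower and 1 (Igfbp5, from 6 to 14 reads) was higher, beside 26.6% and 29.4% of all genes.

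Transcript length moved with the P-body fold in these libraries, so each member was set beside genes of 0.8 to 1.25 times its length. Across genes with at least 10 CPM, which are not independent replicates, Spearman's rho of length with the fold was −0.611 in MEFs, −0.501 in day 3 control cells, 0.26 in naive and −0.0754 in primed ES cells. It was −0.545 in day 3 Nudt21 knockdown cells and −0.266 in Ago2 KO cells. The higher P-body levels of the 3 short carrier RNAs in MEFs were near the median of similar genes, at 1.16 against 0.88 for Igfbp6, 0.94 against 0.70 for Igfbp2 and 0.86 against 0.79 for Igfbp7. In contrast, Igf2 at −5.84 stood beside a median of −0.52, Igfbp5 at −4.79 beside −0.63, H19 at −2.69 beside 0.12 and Igf2r at −2.49 beside −0.54. Each of these 4 lay below the 5th percentile of genes of its length, and Igf1r, at −0.84 beside −0.30, lay within the range. In day 3 control cells Igfbp5 (−1.37, from few reads) lay below the 5th percentile of −1.32, while Igf2, H19, Igf1r and Igf2r lay within the range. Igf2r in primed ES cells, at −1.87, lay below the 5th percentile of −1.62, and Igf1r there (−1.18 beside 0.02) did not. In naive ES cells Igf2r (−1.12 beside 0.35) and Igf1r (−0.67 beside 0.51) lay within the range.

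**Figure D3:**
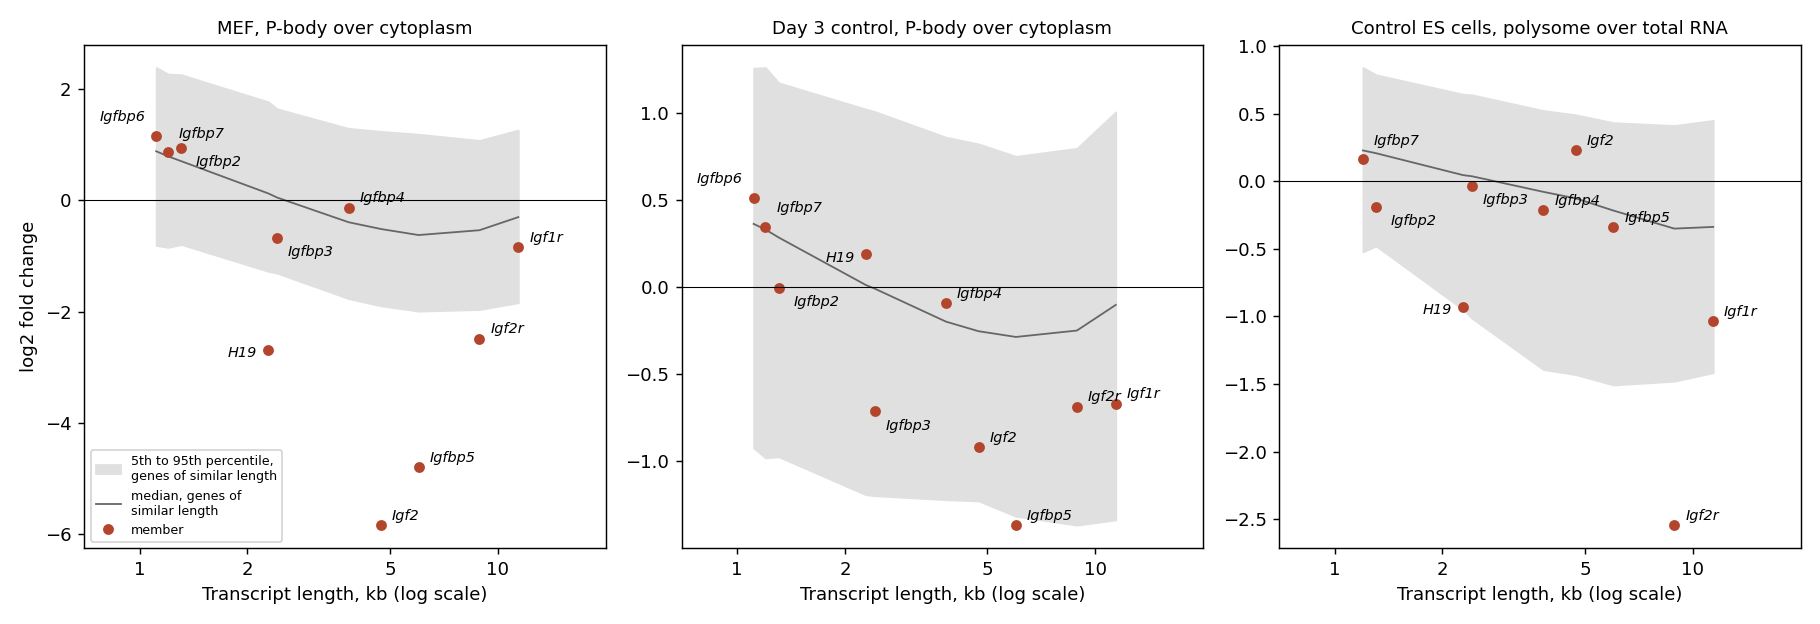
Log2 fold change of each member (points) against transcript length. The length is that of the longest transcript with a RefSeq match, or else of the longest. The line and the band give the median and the 5th to 95th percentiles of genes of similar length. The short carriers Igfbp2, Igfbp6 and Igfbp7 lie near the line in MEFs, whereas Igf2, Igfbp5, H19 and Igf2r lie under the band. In the day 3 control panel Igfbp5 alone, from few reads, lies under the band. In the polysome panel Igf2r alone does so. The P-body folds had served to choose the members, so their panels are a description and not a test.

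Genes whose levels over the 10 groups of P-body and cytoplasm libraries were most like those of 4 members were ranked among 12254 genes with at least 10 CPM in some group, by Pearson's r of log2 mean CPM. For Igf2 they were Wnt9a (r = 0.913), Rnf41 (0.900) and Ube2h (0.893), and for H19 they were Rtl3 (0.987), Mamld1 (0.976) and Chd3 (0.976). For Igfbp3 they were Crym (0.977), Vat1l (0.975) and Mapre2 (0.974). For Igfbp5 they were Igsf10 (0.953), Lgr5 (0.943) and Narf (0.932). The members themselves were seldom close to one another: H19 was the 675th gene for Igf2, and the closest pair had Igfbp6 as the 58th gene for Igfbp7. The 10 groups include both fractions of the same kinds of cells, so the points are not independent and the correlations are a description.

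Knockdown of Nudt21, a factor that selects poly(A) sites, was compared with the control in day 3 cytoplasm. Nudt21 RNA was at 5.74 and 4.99 CPM in the knockdown and 89.1 and 92.2 CPM in the control, as the labels say. H19 was lower in the knockdown, at 14.9 and 15.3 CPM against 72.9 and 67.1 CPM, a log2 difference of −2.23 ± 0.10 (edgeR quasi-likelihood test, adjusted p = 1.3e-11). Igfbp3 fell to 506 and 487 CPM from 1554 and 1646 CPM in the control (−1.70 ± 0.05, edgeR adjusted p = 2.8e-13). Both differences were far beyond the spread between libraries, and the P-body libraries showed the same order, with Igfbp3 at 225 and 337 CPM in the knockdown and 1153 and 782 CPM in the control.

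The ligand and most carriers fell with them. Igf2 stood at 2.98 and 2.84 CPM in the knockdown and 9.54 and 10.6 CPM in the control (−1.80 ± 0.19, edgeR adjusted p = 4.9e-07). Igfbp2 fell by 1.84 on the log2 scale, Igfbp4 by 1.46 and Igfbp5, with 16 and 5 reads left, by 1.47 (adjusted p = 0.043 in the same test). Without 1 of 3 libraries (either control or the second knockdown library) Igfbp5 was no longer called (−1.56 to −1.06, edgeR adjusted p from 0.079 to 0.19). The change was smaller for Igfbp7 (−0.69 ± 0.08), Igfbp6 (−0.46 ± 0.10) and Igf1r (−0.21 ± 0.07). The call of Igf1r was lost without the second control library (−0.15, edgeR adjusted p = 0.21) or the first knockdown library (−0.19, edgeR adjusted p = 0.073). Igf2r, at 166 and 149 CPM against 155 and 154 CPM, was not called, with a log2 difference of 0.01 ± 0.07. DESeq2 did not call Igf1r (adjusted p = 0.051) or Igfbp5 (adjusted p = 0.11), and 1 edgeR fit over all groups did not call Igf1r (adjusted p = 0.31) or Igfbp6 (adjusted p = 0.052). Thus 9 of 10 members were called lower by the main test and 0 higher, where 25% of all 15990 genes were lower and 24.6% higher. The median log2 difference of the members was −1.46, against −0.01 over all genes. Day 3 levels had served to choose the members, so this count and this median are a description and not a test of the set. In the same libraries the 8 fibroblast markers summed to 10560.4 to 10717 CPM in the control and 4228 to 4366 CPM in the knockdown, with reads for 8 of 8 in each library. Of 6 markers of naive pluripotency, Pou5f1, which the reprogramming cassette also carries, stood at 179.7 to 193 CPM in the control and 403 to 437 CPM in the knockdown. The other 5 stayed at or below 5.91 CPM each, with Nanog at 0 to 0.577 CPM and Esrrb at 0 to 0.189 CPM. The part of these markers in the result was not tested.

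**Figure D4:**
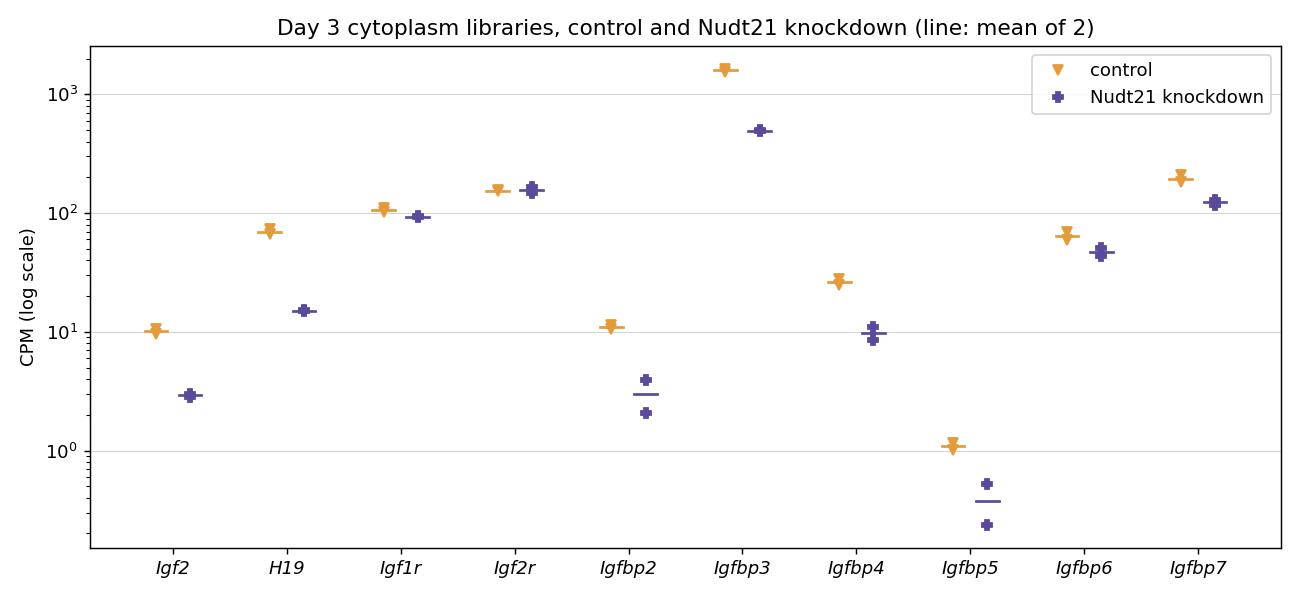
CPM (log scale) of each gene in the 2 control and the 2 Nudt21 knockdown cytoplasm libraries of day 3, with a line at each mean. For 9 genes both knockdown libraries lie below both control libraries, and for Igf2r they overlap.

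The knockdown was not seen to move these RNAs between P-bodies and cytoplasm. In the test of the difference in enrichment, 0 of 10 members were called (edgeR adjusted p from 0.89 to 1). Over all 16973 genes 2 were called, or 0.0118%, with 819 genes at an unadjusted p under 0.05, and DESeq2 called 3 genes higher and 23 lower. The log2 differences ran from −0.36 for Igfbp6 to 0.48 for Igfbp2 among the 9 members other than Igfbp5, whose value of 1.07 ± 1.05 rested on few reads. Without the first control P-body library, edgeR called 1430 genes higher and 755 lower, and 1 of 10 members, Igfbp6 (−0.56 ± 0.17, edgeR adjusted p = 0.046).

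Ribosome occupancy, the level in polysome-bound RNA over that in total RNA, was compared in ES cells, where both receptor RNAs were lower on polysomes. Igf2r held 20.2, 20.03 and 18.3 CPM in the control polysome libraries and 108, 105 and 91.9 CPM in the total RNA libraries, a log2 difference of −2.55 ± 0.08 (edgeR quasi-likelihood test, adjusted p = 5.9e-13). Igf1r held 9.79, 8.30 and 7.66 CPM on polysomes and 16.5, 14.9 and 15.7 CPM in total RNA (−1.04 ± 0.11, edgeR adjusted p = 1.2e-06). Both receptors were thus lower on polysomes in every library, by 5.84-fold and 2.05-fold. Genes of similar length had a median of −0.35 beside Igf2r and −0.34 beside Igf1r, with 0.46% of them below Igf2r and 13.8% below Igf1r. Igf2 was the one member called higher on polysomes, at 29.8, 31.1 and 25.9 CPM against 22.5, 19.9 and 23.8 CPM (0.23 ± 0.09, edgeR adjusted p = 0.042). Its call was lost without the first or second polysome library or the first or second total RNA library (0.16 to 0.24, edgeR adjusted p from 0.075 to 0.22). Without total RNA replicate 1 or 2, Igfbp2 was called lower (−0.26 and −0.25, edgeR adjusted p = 0.026 and 0.042). In all, 1 of 9 members with enough reads was higher and 2 were lower, where 18.8% of 15411 genes were higher and 24.1% lower. Igfbp6 had 0 to 2 reads in each of these libraries and was not tested. Per kb, Igfbp2 again led in total RNA, at 246 CPM per kb against 11.4 for Igf2r.

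The DDX6-depleted cells gave a like picture. Igf2r stood at 22.3, 21.6 and 21.8 CPM on polysomes and 101, 97.3 and 107 CPM in total RNA (−2.40 ± 0.06, edgeR adjusted p = 1.1e-19). Igf1r was at −0.81 ± 0.09 and Igf2 at 0.18 ± 0.06 on the log2 scale, and both were called. Here Igfbp2, at 319.7, 302 and 295 CPM against 332, 339.6 and 314 CPM, was called lower as well (−0.29 ± 0.05, edgeR adjusted p = 1.4e-05), and so was H19 (−0.96 ± 0.39, adjusted p = 0.045 in the same test) from 9 to 20 reads a library. The call of H19 was lost without replicate 1 or 2 of the polysome libraries or replicate 1 or 3 of total RNA (−1.10 to −0.67, edgeR adjusted p from 0.0504 to 0.21). That of Igf2 was lost without replicate 2 or 3 of either fraction (0.14 to 0.18, edgeR adjusted p from 0.0503 to 0.091). The corresponding control values were −0.19 ± 0.08 for Igfbp2 and −0.93 ± 0.43 for H19, which were not called. So 4 members were lower and 1 higher, where 26.8% and 24% of 15638 genes were. DESeq2 called 3, without Igf2 and H19, and on library totals Igfbp3 was called (0.21 ± 0.07, edgeR adjusted p = 0.0196) and H19 was not. On library totals without TMM scaling, 5167 genes were higher and 2751 lower on control polysomes, against 2891 and 3719 with it, and 6133 and 2994 with DDX6 depleted, against 3759 and 4193. Under library totals Igf2r stood at −2.38 and −2.22 and Igf2 at 0.40 and 0.36 in the control and depleted cells.

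**Figure D5:**
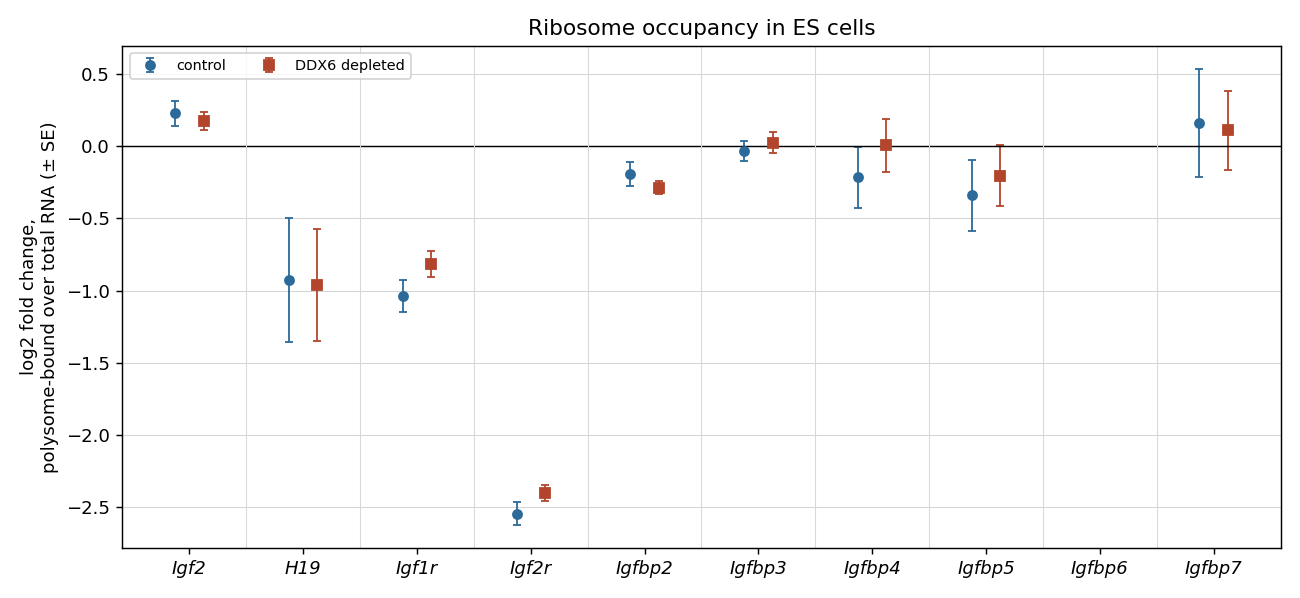
Polysome-bound over total RNA log2 fold change in control (circles) and DDX6-depleted (squares) ES cells, with bars for the SE of the fit (3 libraries per group). Igf2r lies at −2.55 and −2.40 and Igf1r at −1.04 and −0.81, and Igfbp6 has no point because it had fewer than 10 reads.

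Loss of DDX6, measured hours after dTAG-13 was added, was not seen to change any member. The degron acts on the protein, so DDX6 RNA does not check this label. In total RNA 0 of 9 members were called by edgeR, where 1.24% of 15380 genes were higher and 2.07% lower. In polysome-bound RNA it was 0 of 9 as well, where 1.91% of 15625 genes were higher and 2.36% lower. Closest was Igfbp3, at 18.2, 21.9 and 21.4 CPM in depleted and 24.8, 25.5 and 25.05 CPM in control total RNA, a log2 difference of −0.29 ± 0.08 (edgeR adjusted p = 0.067). On polysomes Igfbp3 was at 22.4, 24.2 and 24.8 CPM in depleted and 27.2, 28.6 and 26.9 CPM in control cells (−0.22 ± 0.06, edgeR adjusted p = 0.057). Its libraries did not overlap in either fraction, although neither value passed the threshold. Without control replicate 3 of total RNA, 1577 genes were higher and 1796 lower, against 191 and 318 with it, and 2 of 9 members were called, Igfbp3 (−0.28 ± 0.08, edgeR adjusted p = 0.014) and Igfbp2 (0.16 ± 0.04, edgeR adjusted p = 0.018). Without any other single library there were 5 to 51 genes higher and 1 to 94 lower, the fewest without depleted replicate 1. For occupancy itself, 0 of 10 members and 0 of 16345 genes were called by edgeR, with 844 genes at an unadjusted p under 0.05, and DESeq2 called 2 genes higher and 2 lower. The difference for Igf2r was 0.14 ± 0.10 and that for Igf1r 0.22 ± 0.14.

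Igf2 levels could be set side by side between preparations of ES cells but not compared. RNA fraction, library kit, cell clone and counting were not all the same between them. The degron cells held 19.9 to 31.1 CPM of Igf2 over its 12 libraries, the naive fractions 0.159 to 0.587 CPM and the Ago2 KO fractions 0.0640 to 1.67 CPM. For Igf1r the same 3 sets gave 7.66 to 16.5, 10.1 to 25.9 and 11.6 to 20.4 CPM.

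The wider IGF and insulin pathway was described with 52 other genes, from ligands and receptors to PI3K, AKT and mTOR signalling, proteases of the binding proteins, binders of Igf2 mRNA, and imprinted growth genes. Under Nudt21 knockdown, 14 of 47 tested genes rose and 18 fell in day 3 cytoplasm (edgeR, adjusted over all genes), beside 24.6% and 25% of all genes, with a median log2 difference of −0.07. Foxo3, a transcription factor that AKT restrains, rose from 3.20 to 27.5 CPM (3.08 ± 0.20). Cdkn1c, an imprinted inhibitor of the cell cycle, fell from 53.7 to 8.64 CPM (−2.67 ± 0.13), and Meg3, an imprinted noncoding RNA, from 15.6 to 5.41 CPM (−1.57 ± 0.18). No pathway gene of 48 was called for a change in enrichment.

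On polysomes of control ES cells, 5 of 45 pathway genes were higher and 18 lower than in total RNA, beside 18.8% and 24.1% of all genes. Trim28, a corepressor that guards imprints, was at a mean of 382 CPM on polysomes and 1257 CPM in total RNA (−1.89 ± 0.07), Mtor, the growth kinase, at 38.3 and 94.8 CPM (−1.47 ± 0.07) and the imprinted gene Peg3 at 18.2 and 36.5 CPM (−1.18 ± 0.11). With DDX6 depleted, 7 were higher and 20 lower, beside 24% and 26.8%, and the same 3 genes led, at −2.08 ± 0.04, −1.45 ± 0.05 and −1.14 ± 0.08. On library totals the counts were 11 higher and 15 lower in control and 15 and 15 in depleted cells. Loss of DDX6 lowered 6 of 44 pathway genes in total RNA and raised 0, beside 2.07% and 1.24% of all genes, among them Irs2, an adaptor of the insulin receptor (−0.41 ± 0.09), Plagl1, an imprinted transcription factor (−0.35 ± 0.06), and Peg10 (−0.32 ± 0.07). These counts rested on single libraries, with 14 lower and 3 higher without control replicate 3 and 0 to 2 lower and 0 higher without any other one. On polysomes it raised 1 of 45, Stc2, an inhibitor of the protease PAPP-A (0.37 ± 0.10), and lowered 5, including Trim28 (−0.28 ± 0.05) and Plagl1 (−0.26 ± 0.07), beside 1.91% and 2.36% of all genes. Without control replicate 3 it lowered 8, and without any other single library 1 to 3. For occupancy 0 of 46 were called.

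In MEF P-bodies 7 of 45 pathway genes were higher and 25 lower than in cytoplasm, where 26.6% and 28.7% of all genes were. Peg3 (−2.76 ± 0.18), Irs1, an adaptor of the IGF1 receptor (−1.98 ± 0.16), and Adam12, a protease that cleaves IGFBPs (−1.92 ± 0.10), led. Without 1 library 4 to 8 were higher and 17 to 30 lower, the fewest without cytoplasm replicate 1. Naive ES cells showed 12 of 45 higher and 6 lower, beside 22.6% and 15.4% of all genes, among them the signalling genes Rps6kb1 (2.28 ± 0.16) and Pik3ca (2.27 ± 0.12). Without either P-body library 9 were higher and 1 lower, and without either cytoplasm library 18 to 19 higher and 12 to 13 lower. Over all genes, 3528 were higher and 2413 lower in naive P-bodies, and 2876 and 4055 on library totals. Primed ES cells showed 16 of 47 higher and 14 lower, beside 26.5% and 24.2%, with Pik3ca (2.14 ± 0.15) higher and the imprinted genes Mest (−2.98 ± 0.13) and Peg10 (−1.80 ± 0.13) lower. Without P-body replicate 1 the primed counts were 16 and 9. In day 3 control cells 1 of 48 was called, Akt1, at −1.21 ± 0.16, where 0.196% of all genes were higher and 0.45% lower. Here the 2 P-body libraries decided the count, with 11 higher and 23 lower without replicate 1, 4 and 19 without replicate 2, and 0 and 0 on library totals. Over all genes the counts were 31 higher and 71 lower, and 4085 and 4667 without P-body replicate 1. The knockdown cells gave 2 higher and 15 lower of 45, where 9.04% and 12.8% of all genes were, and 0 higher and 6 to 9 lower without either cytoplasm library. Ago2 KO cells gave 1 higher (Rps6kb1, 1.19 ± 0.23) and 1 lower (Peg10, −1.98 ± 0.48) of 43, beside 5.47% and 1.05%. Without cytoplasm replicate 1 the counts were 4 higher and 17 lower, without replicate 2 they were 6 and 3, and without either P-body library 0 were higher and 0 to 1 lower. The enrichment itself was higher at day 3 than in MEFs for 13 of 48 pathway genes and lower for 3, beside 9.59% and 5.13% of all genes, led by Meg3 (−2.51 ± 0.22), Mest (2.27 ± 0.42) and Peg3 (1.96 ± 0.29). Leaving out 1 library gave 2 to 18 higher and 2 to 8 lower, the fewest without day 3 cytoplasm replicate 2 and the most without day 3 P-body replicate 1. From MEFs to day 3, 15 of 47 pathway genes rose and 26 fell in cytoplasm, beside 35.5% and 33.7% of all genes, with log2 differences of −4.95 ± 0.12 for Adam12, 3.45 ± 0.09 for Mest and 2.68 ± 0.12 for Plagl1.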

How the data were processed

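P-body RNA was taken from particles sorted from GFP-LSM14A-expressing cells. Cytoplasm RNA came from aliquots of the fraction before sorting. That fraction was a resuspended pellet of lysate cleared of nuclei, and it still held P-bodies. Polysome-bound RNA came from sucrose gradients and was compared with total RNA of the same cells. The authors aligned 20 P-body and cytoplasm libraries with hisat2 to mm10 and counted reads over refGene exons with featureCounts. The deposited estimated counts of these libraries are not whole for 17.6% to 25.7% of genes, and how shared reads were split is not stated. For polysome and total RNA (5.05% to 6.19% not whole) and for Ago2 KO cells (11.6% to 13.1% not whole), the authors deposited estimated counts from salmon. Another 10 tables hold the authors' own comparisons (log2 fold changes and adjusted p-values) and were not used. No column of per-sample values was left out.

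The sample labels gave each group and replicate number. Estimated counts were rounded to whole numbers. Genes with at least 10 reads over the libraries of a fit were tested with edgeR 4.0.16 in R 4.3.3, using TMM scaling, the quasi-likelihood test (two-sided) and Benjamini-Hochberg adjustment over all genes at 0.05. Each fit held only the groups compared, and differences of enrichment or occupancy were interaction terms. In 9 comparisons whose values had served to choose the genes, folds are described without a test, and 7 comparisons were tested. The tested Nudt21 contrasts share day 3 libraries with that choice. CPM values are on the library total. The kb came from the longest GENCODE M21 transcript with a RefSeq match, or from the longest of all where none matched. The members and gene lists were chosen with earlier results of these data known. The members were named in every comparison, and of the 52 pathway genes the 3 called ones with the largest change and a mean of at least 10 CPM, except 1 value that is not reported here. Scripts were tested on simulated data. Across the 24 replicate pairs the chi-square per degree of freedom was 1.82 or more, so no pair was counted as 1 sample. Such values do not show that replicates were separate cultures, and the closest pairs were naive (1.82) and primed (2.15) ES P-bodies. Depth ran from 6769731 to 31185874 reads, which limits genes with few reads, and every error covers the spread between libraries only. Alternatives were DESeq2 1.42.0, DESeq2 size factors, library totals, 2 other filters, a replicate block, 1 fit over all groups, and leaving out each library. Plots were made with matplotlib 3.10.9.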

Additional observations from a re-analysis of the deposited data

Results flagged for a closer look

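In 4 carriers every library moved one way in MEFs or primed cells and the opposite way in another kind of cell, in P-bodies against cytoplasm. These differences between kinds of cells were not tested. Igfbp5 was higher in primed ES P-bodies (1.69 on the log2 scale) and lower in MEF P-bodies (−4.79), 6.48 apart. Igfbp6 was higher in MEF P-bodies (1.16) and lower in naive ES P-bodies (−2.89, from few reads), 4.04 apart. Igfbp7 stood at 0.86 in MEFs and −1.81 in naive ES cells, 2.67 apart, and Igfbp2 at 0.94 and −0.33, 1.26 apart.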

How the results depend on the processing

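Of the counts of members, 181 stayed within 1.5 times their value under the alternatives tried, 21 rose and 3 fell. Of the members with an adjusted p under 0.1 in a tested comparison, none changed direction under these alternatives, while 27 values of such members lost their call, 9 gained one and 218 did neither. In the described comparisons 107 member values moved by more than 1 SD and 610 did not. With DDX6 depleted, 3 members rather than 5 were called on polysomes by DESeq2, and 3 to 4 when 1 library was left out. Loss of DDX6 gave 1 called member, Igfbp3, in total RNA with all groups in 1 fit or with no filter, and 0 to 2 without 1 library. In polysome-bound RNA it gave 1, again Igfbp3, with edgeR's own filter or with no filter. The Nudt21 effect on enrichment gave 0 to 1 without 1 library. Members without overlap moved when 1 library was left out, where fewer libraries make overlap rarer, to 1 to 2 higher in Nudt21 knockdown P-bodies and 1 higher in naive ones (both 0 with all libraries). In Ago2 KO P-bodies they moved to 2 to 5 lower and 2 to 4 higher.

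Gene counts moved by more than 1.5 times in some settings. The Nudt21 effect on enrichment gave 12 higher and 50 lower genes with no filter, and 3 and 23 by DESeq2. For DDX6 loss in total RNA (191 and 318), DESeq2 gave 275 and 557, all groups in 1 fit 479 and 696, and no filter 306 and 557. For polysome-bound RNA they ran from 88 and 91 to 410 and 541 without 1 library. For occupancy they were 7 and 9 with no filter, and 23 and 29 without the third control total RNA library. Same-numbered replicates deviated together with r from −0.0481 to 0.602 and not in every case, so the numbers were not taken to pair the samples. The methods took P-body and cytoplasm, and likewise polysome-bound and total RNA, from the same lysates, but the sources used here do not say that equal numbers mark 1 lysate. With a replicate block, DDX6 loss gave 39 higher and 43 lower genes in total RNA and 4 and 2 for occupancy, Ago2 KO P-bodies gave 2565 and 1613 against 919 and 176 (r = 0.602), and day 3 control P-bodies 228 and 574 against 31 and 71. No count of members moved past 1.5 times, and Igfbp5 under Nudt21 knockdown (adjusted p = 0.053, edgeR) and Igf2 on control polysomes (adjusted p = 0.061, edgeR) were no longer called. The depth leaves Igf2 and H19 in naive cells and Igfbp5 at day 3 with few reads, and pairs of libraries limit every P-body fold.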
